A study of Homo sapiens with 14 samples.

Results

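Transcript levels of 10 genes that encode the kinases of RNA polymerase II transcription, their cyclins and a regulator were examined in prostate cancer cells treated with SEL120-34A, a compound that blocks CDK8 and CDK19, the kinases of the Mediator complex. The genes were CDK7, CCNH, MNAT1, CDK9, CCNT1, CCNT2, HEXIM1, CDK12, CDK13 and CCNK, chosen by symbol from the 62703 genes in the count table, and all 10 were found. Cells received 1.5 µM SEL120-34A or DMSO, its solvent, for 3 days. LNCaP cells are sensitive to enzalutamide, a drug against prostate cancer, 22Rv1 cells are resistant to it, and PC3 cells are insensitive to it. Each is an established line derived from a single tumour, so a difference between lines holds for those lines alone. LNCaP and 22Rv1 had 3 libraries per arm and PC3 had 1, giving 14 libraries made by BRB-seq, which tags the 3′ ends of transcripts and pools barcoded samples.

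RNA polymerase II is driven through its cycle by phosphorylation of the long repeated tail of its largest subunit. CDK7, cyclin H (CCNH) and MAT1 (MNAT1) form the CDK-activating kinase, which sits in the general factor TFIIH, marks the tail at promoters and also activates cell-cycle kinases. CDK9 with cyclin T1 (CCNT1) or cyclin T2 (CCNT2) is P-TEFb, which releases paused polymerase into elongation, and HEXIM1 holds P-TEFb inactive together with the 7SK RNA. CDK12 and CDK13 each pair with cyclin K (CCNK) and act during elongation, and CDK12 is known for sustaining the transcription of long DNA repair genes. CDK8 and CDK19, the targets of SEL120-34A, belong to the same kinase family but act as part of Mediator.

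One gene of the group stood out by its values. CCNH was higher after SEL120-34A in 22Rv1 cells, where its mean rose from 117 ± 28.1 CPM to 302 ± 32.8 CPM (SD, n = 3). CPM is the count scaled to library size, here with TMM factors that correct for differences in library composition. In LNCaP cells the corresponding means were 163 ± 7.34 and 224 ± 38.4 CPM, a difference that did not pass the threshold. None of the other 5 genes with enough counts to be tested passed it in either line. Between the untreated lines, CCNH and HEXIM1 were higher in LNCaP and CDK13 was higher in 22Rv1. The genes were drawn up with results of these comparisons known, so the differences and adjusted p-values describe them and are not independent evidence.

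Total counts per library ran from 246063 to 909176, and those of treated 22Rv1 (246063 to 368778) all lay below those of untreated 22Rv1 (476455 to 777207). A count of 0 allows a level of up to 3.30 CPM in the deepest library and up to 12.2 CPM in the shallowest, with a floor of 3 counts that covers counting error only. The share of counts from mitochondrial genes was 13.9 to 17.3% in untreated and 16.5 to 23.3% in treated LNCaP, and 7.60 to 9.82% and 9.52 to 13.1% in 22Rv1. VIM (vimentin), the marker set for PC3, was at 1262 and 1110 CPM in the PC3 libraries and at group means of 8.47 to 43.4 CPM in LNCaP and 22Rv1. Of 7 markers of immune cells, fibroblasts and endothelium, none passed the low-count filter of the fit, PTPRC and CD3E were at 0 in all libraries, and no marker exceeded 13 counts in an LNCaP or 22Rv1 library. COL1A1 had 49 and 85 counts in PC3. The fibroblast collagen gene COL3A1 had 2 counts in all in untreated LNCaP (0 to 2.82 CPM) and 22 in treated LNCaP (15.6 to 25.3 CPM), with no overlap, and 2 counts in all in each 22Rv1 arm. COL1A1, the other fibroblast gene of the list, had a lower mean in treated LNCaP. Its means were 15.5 CPM (9.86 to 18.3) untreated and 10.6 CPM (7.80 to 13.6) treated, with overlap, from 27 and 12 counts in all. The part of either collagen gene in the LNCaP results was not tested.

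The promoters of the 3 genes that passed a test are shown because their levels differed between groups. Each covers the 250 bases before and 50 bases after a start in RefSeq on GRCh38.p14, written 5′ to 3′ on the gene's strand, and capitals mark the motif matches. CCNH lies on the minus strand of chr5:87412881-87413180, HEXIM1 on the plus strand of chr17:45148225-45148524, and CDK13 on the plus strand of chr7:39950006-39950305.
CCNH: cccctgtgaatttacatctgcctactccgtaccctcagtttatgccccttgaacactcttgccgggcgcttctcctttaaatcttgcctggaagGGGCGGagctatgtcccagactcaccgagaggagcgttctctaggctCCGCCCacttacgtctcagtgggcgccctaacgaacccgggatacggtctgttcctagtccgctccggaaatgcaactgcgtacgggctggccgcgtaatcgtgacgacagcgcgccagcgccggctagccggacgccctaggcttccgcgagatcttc
HEXIM1: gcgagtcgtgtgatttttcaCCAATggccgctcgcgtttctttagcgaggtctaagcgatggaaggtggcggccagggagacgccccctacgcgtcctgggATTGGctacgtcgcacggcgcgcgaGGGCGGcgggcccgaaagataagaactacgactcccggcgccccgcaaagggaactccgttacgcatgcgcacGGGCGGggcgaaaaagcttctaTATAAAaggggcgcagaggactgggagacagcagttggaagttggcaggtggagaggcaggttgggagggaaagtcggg
CDK13: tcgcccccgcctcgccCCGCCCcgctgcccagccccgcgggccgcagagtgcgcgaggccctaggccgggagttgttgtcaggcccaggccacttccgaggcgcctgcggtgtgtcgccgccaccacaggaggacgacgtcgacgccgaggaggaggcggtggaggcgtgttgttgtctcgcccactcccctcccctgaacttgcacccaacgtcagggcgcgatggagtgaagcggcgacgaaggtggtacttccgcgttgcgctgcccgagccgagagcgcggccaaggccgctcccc
Both strands of 35116 promoter windows of the same length were searched for 5 motifs: the TATA box TATAAA, the CCAAT box CCAAT, the GC box GGGCGG, the E box CACGTG and the cyclic AMP element TGACGTCA. The CCNH window held 2 GC boxes, at base 95 and, on the reverse strand, at base 142. The HEXIM1 window held a TATA box at base 222, CCAAT boxes at bases 21 and 102 (reverse) and GC boxes at bases 127 and 200. RefSeq gives 2 overlapping windows for CDK13, of which the first is printed. It held 1 GC box, at base 17 on the reverse strand, and the other, chr7:39950110-39950409, held none of the motifs. A GC box was present in windows of 8 of the 10 genes and in 45.0% of all windows, a CCAAT box in 4 and 34.6%, an E box in 2 (CDK7 and CCNT1) and 7.26%, a TATA box in 1 (HEXIM1) and 11.5%, and the cyclic AMP element in 0 and 1.85%. A gene was counted if any of its windows held the motif, and CDK7, CCNT1 and CDK13 have more than 1 window. The counts of genes and the shares of windows are thus unlike measures. The printed windows of CCNH, HEXIM1 and CDK13 had a GC content of 60.3%, 62.0% and 72.7%, against a median of 58.7% over all windows. These matches describe the letters and carry no measure of binding.

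The CDK-activating kinase was examined first. CCNH (ENSG00000134480.16) lies on chromosome 5 from 87318416 to 87412930, minus strand, in GENCODE release 44 on GRCh38. In untreated 22Rv1 it was at 141, 86.1 and 123 CPM in replicates 1 to 3, from 72, 46 and 103 counts. In treated 22Rv1 it was at 333, 305 and 268 CPM, from 121, 71 and 94 counts. Every treated library was above every untreated one, and the lowest treated value (268 CPM) was well above the highest untreated value (141 CPM). The log2 difference was 1.38 ± 0.17 (SE, 95% interval 1.04 to 1.72), a 2.60-fold rise with an interval of 2.05 to 3.30, and the adjusted p-value of edgeR's quasi-likelihood test was 3.01e-07. The SEs and intervals of edgeR fits, here and below, were worked out from the test statistic and are approximate. By p-value CCNH was number 12 of the 7086 genes tested in 22Rv1. In that comparison 1 of 6 tested members passed the threshold, against 5.7% of all genes, 404 in number (4.15% higher and 1.55% lower), and nothing is read from that count because the members were chosen with it known. In bulk libraries a change in the RNA of each cell and a change in the mix of cells cannot be told apart. Because treated 22Rv1 libraries were shallower, all libraries were also thinned to 246063 counts, and the log2 difference was then 1.28 (adjusted p = 1.25e-05). With mitochondrial genes removed it was 1.36. Over all 23 alternatives it lay between 1.20 and 1.48, with adjusted p-values from 7.80e-10 to 0.00511.

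In untreated LNCaP, CCNH was at 155, 168 and 168 CPM, from 110, 64 and 120 counts. In treated LNCaP it was at 183, 228 and 260 CPM, from 47, 84 and 123 counts. The arms did not overlap here either, a separation seen for 19.4% of all tested genes in LNCaP and 23% in 22Rv1. The log2 difference was 0.51 ± 0.17 (SE, 95% interval 0.17 to 0.85), with an unadjusted p of 0.00397 and an adjusted p of 0.104 in edgeR. It did not pass under any of the 23 alternatives, whose values lay between 0.39 and 0.60 with adjusted p-values from 0.0513 to 0.485. Of the 6 tested members, 0 passed in LNCaP by edgeR, against 2.77% of all genes (1.99% higher and 0.776% lower), and 1 had an unadjusted p under 0.05 against 956 of all genes. DESeq2 and limma-trend also called 0 of the members tested there.

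Whether the CCNH response differed between lines was tested directly. The LNCaP response minus the 22Rv1 response was -0.87 ± 0.24 on the log2 scale (SE, 95% interval -1.35 to -0.39), with an unadjusted p of 0.000750 and an adjusted p of 0.0787 in edgeR. The difference between lines thus missed the threshold by this fit. It passed in 2 of 22 alternatives, at -0.97 (adjusted p = 0.0452) without replicate 3 of treated LNCaP, which had the highest CCNH level of its arm, and at -0.88 (adjusted p = 0.0394) with replicate number as a block. Over the 22 alternatives the adjusted p ran from 0.0394 to 0.278. Among the members 0 of 6 passed for this difference, against 0.734% of all genes, and 1 had an unadjusted p under 0.05 against 811 of all genes. DESeq2's Wald test gave an adjusted p for CCNH alone among the members (0.0822), so it says nothing on the others. With limma-trend, which tested all members, 0 were called.

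**Figure D1:**
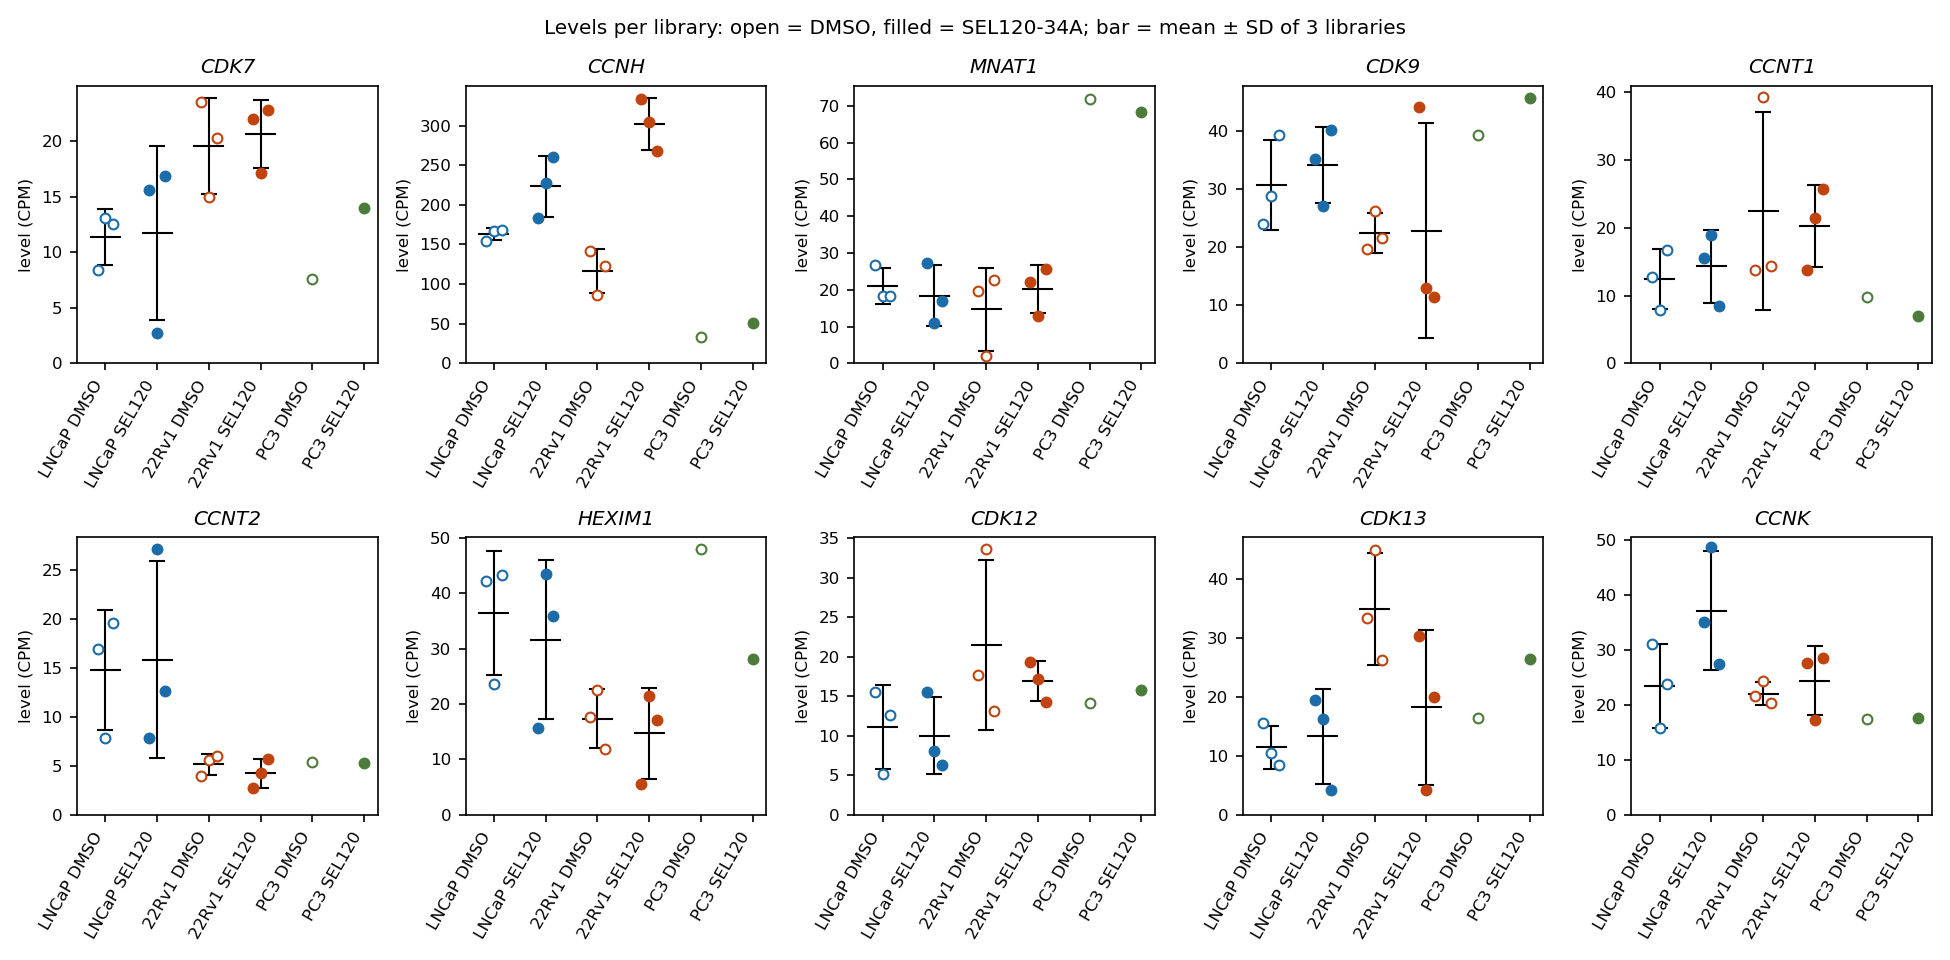
Levels in CPM (vertical axes, each from 0) of the 10 genes in every library, by cell line and treatment, with open points for DMSO, filled points for SEL120-34A and bars for the mean ± SD of 3 libraries. The CCNH arms do not overlap in 22Rv1 (86.1 to 141 against 268 to 333 CPM) or LNCaP, while the arms of the other 9 genes overlap in both lines. Of all tested genes, 19.4% in LNCaP and 23% in 22Rv1 have arms that do not overlap, so nothing is read from this count.

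CDK7 and MNAT1, the partners of cyclin H, were measured at far fewer counts. CDK7 (ENSG00000134058.12, chromosome 5, 69234795 to 69277430, plus strand), the catalytic subunit, had 1 to 17 counts per LNCaP or 22Rv1 library and did not pass the low-count filter. Its means were 11.4 ± 2.54 and 11.7 ± 7.84 CPM in untreated and treated LNCaP, and 19.6 ± 4.33 and 20.7 ± 3.06 CPM in 22Rv1. The arms overlapped in both lines. A fit of all genes without the filter gave CDK7 log2 differences of 0.04 (95% interval -1.01 to 1.10) in LNCaP and 0.05 (-0.80 to 0.91) in 22Rv1. A 2-fold change of CDK7 lay inside the LNCaP interval, so a change of that size could not be told from none there. Both CDK7 differences were small, so these intervals are approximate and set no firm limit.

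MNAT1 (ENSG00000020426.11, chromosome 14, 60734742 to 60969965, plus strand), which assembles the kinase and ties it to TFIIH, was tested. In LNCaP its means were 21.1 ± 4.92 and 18.3 ± 8.32 CPM, a log2 difference of -0.27 ± 0.48 (SE, adjusted p = 0.874). In 22Rv1 they were 14.7 ± 11.2 and 20.2 ± 6.59 CPM, a log2 difference of 0.43 ± 0.50 (adjusted p = 0.706). One untreated 22Rv1 library, replicate 2, held a single MNAT1 count, and the others held 10 and 19. Without that library the 22Rv1 value was -0.03, and without untreated replicate 3 it was 0.97 (adjusted p = 0.441), so single libraries set its sign and size. CCNH was thus the 1 tested member of the complex past the threshold in 22Rv1, and whether its response differed from those of CDK7 and MNAT1 was not tested.

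P-TEFb was examined next. CDK9 (ENSG00000136807.14, chromosome 9, 127785679 to 127790792, plus strand), its kinase, was at 23.9, 28.8 and 39.1 CPM in untreated and 35.1, 27.1 and 40.1 CPM in treated LNCaP. In 22Rv1 it was at 19.6, 26.2 and 21.5 CPM untreated and 44.1, 12.9 and 11.4 CPM treated. Treated 22Rv1 replicate 1 stood above the untreated libraries and the other two below them, from 16, 3 and 4 counts. The log2 differences were 0.18 ± 0.36 in LNCaP (adjusted p = 0.891) and 0.12 ± 0.42 in 22Rv1 (adjusted p = 0.914). Without treated replicate 1 the CDK9 value in 22Rv1 was -0.86 (adjusted p = 0.483), so 1 library set its sign.

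The 2 cyclins that pair with CDK9 did not pass the low-count filter. CCNT1 (ENSG00000129315.11), on chromosome 12, had means of 12.4 ± 4.47 and 14.3 ± 5.37 CPM in untreated and treated LNCaP and of 22.5 ± 14.6 and 20.3 ± 6.03 CPM in 22Rv1. CCNT2 (ENSG00000082258.13), on chromosome 2, was at 14.8 ± 6.14 and 15.9 ± 10.0 CPM in LNCaP and at 5.17 ± 1.09 and 4.25 ± 1.47 CPM in 22Rv1. The treated 22Rv1 libraries held 1 or 2 CCNT2 counts each, under the floor of 3, so no fold is given there. Without the filter, the log2 differences in LNCaP were 0.01 (95% interval -1.01 to 1.02) for CCNT1 and 0.00 (-0.87 to 0.87) for CCNT2, and that of CCNT1 in 22Rv1 was -0.14 (-0.99 to 0.71).

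HEXIM1 (ENSG00000186834.4, chromosome 17, 45148475 to 45152099, plus strand) is a gene of 1 exon whose product inhibits P-TEFb. It was at 42.3, 23.6 and 43.3 CPM in untreated and 15.6, 43.4 and 35.9 CPM in treated LNCaP. In 22Rv1 it was at 17.7, 22.5 and 11.9 CPM untreated and 5.51, 21.5 and 17.1 CPM treated. Within each line the arms overlapped, and each arm held 1 library well below the other two except untreated 22Rv1. The log2 differences were -0.16 ± 0.35 in LNCaP (adjusted p = 0.898) and -0.25 ± 0.51 in 22Rv1 (adjusted p = 0.851). Without treated replicate 1 of the line, the HEXIM1 value was 0.06 in LNCaP and 0.20 in 22Rv1, so 1 library set the sign in each. The antisense gene HEXIM2-AS1 overlaps HEXIM1 and had 13 counts over the 14 libraries, against 211 for HEXIM1. The sources used here do not give the strand setting of the counting.

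CDK12, CDK13 and cyclin K act on elongating polymerase. CDK12 (ENSG00000167258.15, chromosome 17) did not pass the filter, with means of 11.1 ± 5.29 and 10.0 ± 4.91 CPM in untreated and treated LNCaP and 21.5 ± 10.8 and 16.9 ± 2.53 CPM in 22Rv1. Its log2 differences without the filter were -0.44 (95% interval -1.54 to 0.67) in LNCaP and -0.32 (-1.22 to 0.58) in 22Rv1. The CDK12 arms overlapped in both lines.

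CDK13 (ENSG00000065883.18, chromosome 7, 39950121 to 40099580, plus strand) was at 15.5, 10.5 and 8.39 CPM in untreated and 19.5, 16.3 and 4.22 CPM in treated LNCaP, a log2 difference of 0.07 ± 0.57 (adjusted p = 0.980) whose sign changed when single libraries were left out. In 22Rv1 it was at 33.4, 44.9 and 26.2 CPM untreated and 30.3, 4.29 and 20.0 CPM treated. The treated values lay lower apart from replicate 1, and the arms overlapped. The log2 difference was -0.75 ± 0.43 (95% interval -1.62 to 0.12, adjusted p = 0.358). Without treated replicate 1 it was -1.29, again short of the threshold (adjusted p = 0.239). Treated replicate 2, the shallowest library with 246063 counts, held 1 CDK13 count.

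CCNK (ENSG00000090061.17, chromosome 14, 99481169 to 99535044, plus strand) was at 31.0, 15.7 and 23.8 CPM in untreated and 35.1, 48.8 and 27.5 CPM in treated LNCaP. Its means in 22Rv1 were 22.1 ± 2.07 and 24.4 ± 6.30 CPM. The log2 differences were 0.59 ± 0.34 in LNCaP (95% interval -0.09 to 1.28, adjusted p = 0.463) and 0.22 ± 0.39 in 22Rv1 (adjusted p = 0.825). CCNK overlaps the exons of CCDC85C, a gene on the opposite strand that had 369 counts over the 14 libraries against 176 for CCNK. Without a stated strand setting, reads of the pair cannot be told apart, and the CCNK values are uncertain. The gene RASA1 runs opposite to CCNH, with 57 counts against 1115 for CCNH. Annotated exons of RASA1 and CCNH overlap, but not those of the canonical CCNH transcript. The opposite-strand noncoding gene ENSG00000285190, with 1 count, does overlap the exons of that transcript.

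**Figure D2:**
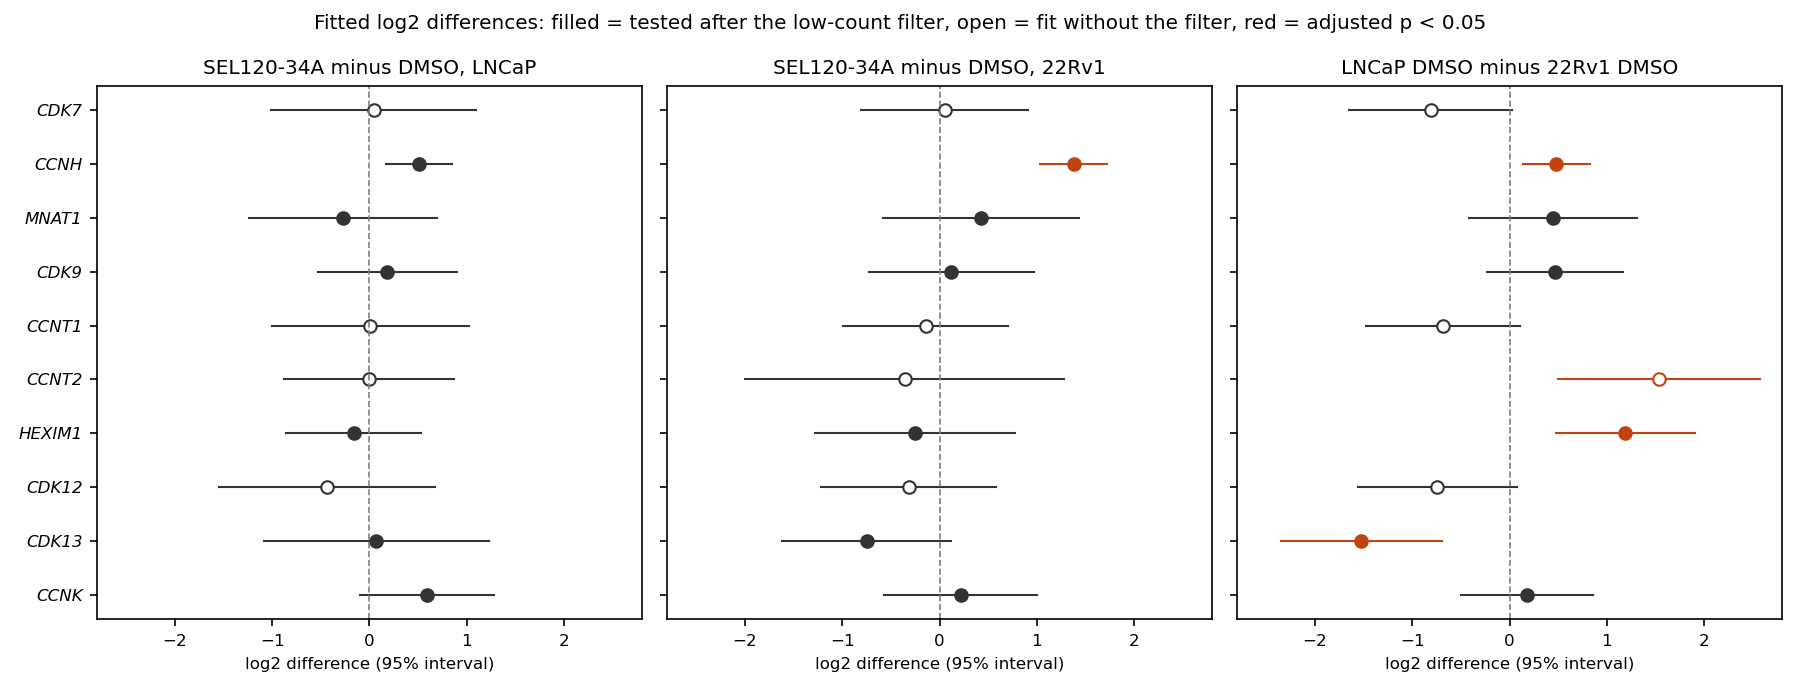
Log2 differences with 95% intervals (horizontal axes) of the 10 genes for SEL120-34A against DMSO in LNCaP and 22Rv1 and for untreated LNCaP against untreated 22Rv1, with filled points for genes that passed the low-count filter, open points for the fit without it, and red for an adjusted p under 0.05. CCNH is red in 22Rv1 at 1.38, and the right panel shows CCNH, HEXIM1 and CDK13 in red, with CCNT2 as an open red point from the fit without the filter.

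The untreated lines differed in 3 of the 6 tested members. At DMSO, 49% of all 7086 genes tested differed between LNCaP and 22Rv1 (24% higher and 25% lower in LNCaP), a share close to that among the members, so nothing is read from the count. The p-values rest on libraries of these lines and measure the spread between libraries. The study's methods state 3 or more biological replicates per experiment unless noted otherwise. The labels do not say that libraries came from separate cultures. CDK13 was lower in LNCaP, at 8.39 to 15.5 CPM against 26.2 to 44.9 CPM in 22Rv1, with a log2 difference of -1.52 ± 0.41 (SE, LNCaP minus 22Rv1, adjusted p = 0.00208). HEXIM1 was higher in LNCaP, at 23.6 to 43.3 CPM against 11.9 to 22.5 CPM, with a log2 difference of 1.19 ± 0.35 (adjusted p = 0.00501). CCNH was higher in LNCaP, at 155 to 168 CPM against 86.1 to 141 CPM, with a log2 difference of 0.48 ± 0.17 (adjusted p = 0.0176). For these 3 genes the untreated lines did not overlap, a separation seen for 56.4% of all genes.

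The differences between untreated lines depended in part on single libraries and on the method. Without untreated 22Rv1 replicate 2, its lowest library, the CCNH value was 0.31 (adjusted p = 0.142), and without untreated LNCaP replicate 3 it was 0.45 (adjusted p = 0.0585). Without untreated 22Rv1 replicate 3 the HEXIM1 value was 0.91 (adjusted p = 0.0621). CDK13 passed in all 12 fits that left out a library. Scaled to library totals without TMM, the CCNH value was 0.27 (adjusted p = 0.179), and limma-trend gave 0.91 for HEXIM1 (adjusted p = 0.140) and -1.34 for CDK13 (adjusted p = 0.0752). Of the other tested members, CDK9 was at 0.47 ± 0.34 (adjusted p = 0.268), MNAT1 at 0.45 ± 0.43 (adjusted p = 0.400) and CCNK at 0.18 ± 0.34 (adjusted p = 0.692).

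Among the 4 genes under the filter, CCNT2 was at 16.9, 7.85 and 19.6 CPM in untreated LNCaP and 3.93, 5.62 and 5.96 CPM in untreated 22Rv1. These libraries did not overlap, but the 22Rv1 values rest on 2, 3 and 5 counts. Without the filter the CCNT2 log2 difference was 1.54 ± 0.53 (adjusted p = 0.0217), and with limma-trend it was 0.99 and missed the threshold (adjusted p = 0.0612). CDK7, CCNT1 and CDK12 were at -0.81, -0.69 and -0.74 in the same fit, with adjusted p-values of 0.196, 0.268 and 0.238.

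Ordered by level over the 6 groups, CCNH was lowest in PC3 (33.8 CPM untreated and 50.9 CPM treated), then rose through untreated 22Rv1, untreated LNCaP and treated LNCaP to treated 22Rv1. The LNCaP and 22Rv1 groups did not overlap in the CCNH order. Each PC3 group is a single library, so overlap cannot be judged there. Untreated 22Rv1 was therefore below untreated LNCaP, a separation of untreated lines seen for 56.4% of all genes. Treated 22Rv1 (268 to 333 CPM) was just above treated LNCaP (183 to 260 CPM). The treated lines were not fitted against each other, and the share of all genes apart between them was not computed. HEXIM1 was lowest in treated 22Rv1 and highest in untreated PC3, and the 2 LNCaP arms overlapped each other. CDK13 was lowest in untreated LNCaP and highest in untreated 22Rv1, and the 2 LNCaP arms overlapped each other. Every other pair of neighbours in the CDK13 order included a PC3 library, so overlap was not judged there.

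PC3 cells had 1 library per arm, so no test was made and the intervals below cover counting error only. CCNH had 31 and 29 counts in untreated and treated PC3, or 33.8 CPM (exact Poisson 95% interval 22.9 to 47.9) and 50.9 CPM (34.1 to 73.0). The CCNH log2 ratio was 0.56 with a prior count of 2, and the intervals overlapped. HEXIM1 had 44 and 16 counts, or 47.9 CPM (34.8 to 64.3) and 28.1 CPM (16.0 to 45.6), a log2 ratio of -0.72. MNAT1 was at 71.9 CPM (55.6 to 91.4) and 68.4 CPM (48.6 to 93.5), above every LNCaP and 22Rv1 library, whose highest value was 27.3 CPM. The other 7 genes had log2 ratios from -0.36 (CCNT1) to 0.70 (CDK7). Of the 9 members with at least 10 counts over both libraries, 0 reached a 2-fold difference, against 6.9% of 10415 genes.

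**Figure D3:**
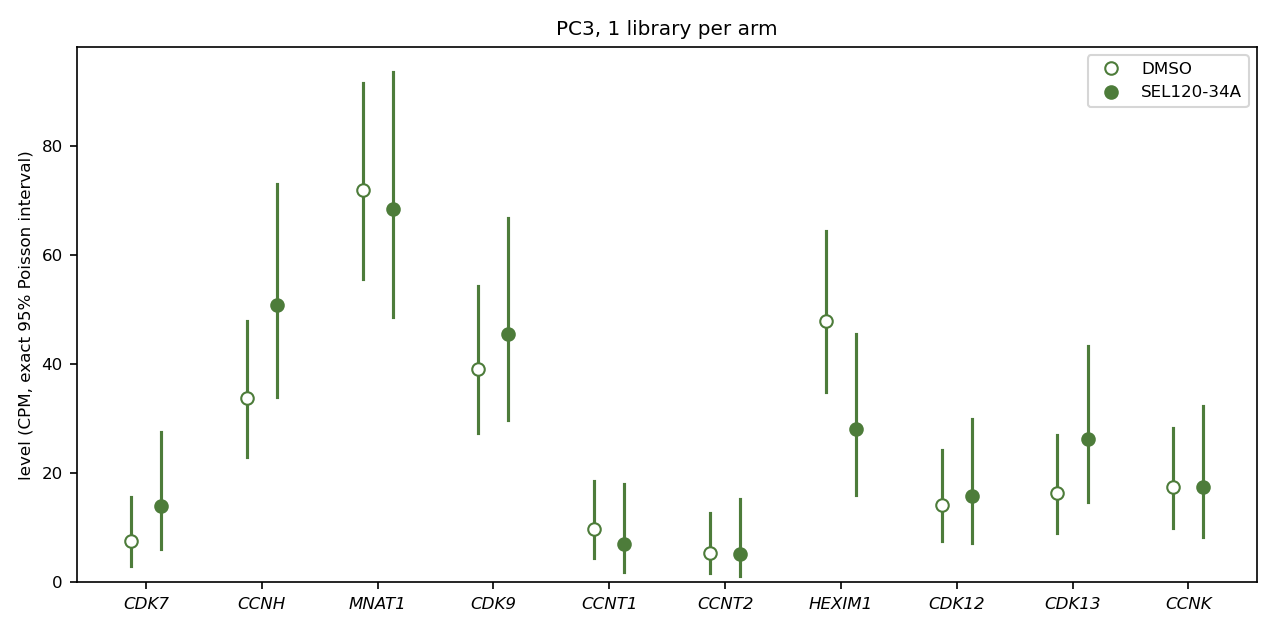
Levels in CPM (vertical axis) of the 10 genes in the 2 PC3 libraries, open for DMSO and filled for SEL120-34A, with exact 95% Poisson intervals as bars. MNAT1 is at 71.9 and 68.4 CPM, and the intervals of every gene overlap between the libraries.

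The wider machinery around these kinases was described by 7 lists holding 78 genes, of which 60 were tested. After SEL120-34A, 0 of the 60 passed in LNCaP by edgeR, against 2.77% of all genes, and 1 (1.67%) passed in 22Rv1, against 5.7%. That gene was POLR2K (ENSG00000147669.11), a small subunit shared by the nuclear RNA polymerases. POLR2K was at 86.8 ± 10.9 CPM in untreated and 178 ± 25.5 CPM in treated 22Rv1, with no overlap (74.9 to 96.2 against 151 to 202 CPM), and the log2 difference was 1.03 ± 0.20 (adjusted p = 5.55e-04). In LNCaP it was at 44.5 to 71.8 CPM untreated and 56.9 to 86.6 CPM treated, a log2 difference of 0.30 ± 0.24 (adjusted p = 0.632). The test of the difference between lines gave -0.73 ± 0.31 (adjusted p = 0.350).

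The other lists had 0 genes past the threshold in either line. For the 6 tested TFIIH subunits beyond the kinase, the median log2 difference was 0.08 in LNCaP and -0.05 in 22Rv1. For the 8 tested genes of the 7SK complex and the super elongation complex, partners of P-TEFb, it was 0.31 and -0.70, against 0.00 over all genes in both lines. For the 14 tested pausing and elongation factors it was -0.06 and -0.14, and for the 10 tested subunits of RNA polymerase II 0.08 and 0.24. The 8 tested phosphatases that act on the polymerase tail had medians of -0.05 and -0.10, and the 6 tested other transcription-linked kinases and cyclins 0.14 and 0.17. The 8 tested DNA repair genes known to need CDK12 had medians of -0.13 and -0.07. The rest of the 12 listed, ATM, ATR, BRCA1 and RAD51D, did not pass the low-count filter, so these medians do not cover them. The 6 tested members themselves had medians of 0.13 and 0.17. For the difference between lines 0 of the 60 genes passed by edgeR, against 0.734% of all genes. Between untreated lines 28 did, 12 higher and 16 lower in LNCaP, and their share of 46.7% was near the 49% of all genes.

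Among 1650 genes with a mean of at least 50 counts, those whose levels followed CCNH most closely over the 12 LNCaP and 22Rv1 libraries were RPL23A, RPL30 and RPL36AL. RPL23A and RPL30 encode ribosomal proteins, and RPL36AL encodes a ribosomal protein of the L36A family. Pearson's r of log2 CPM was 0.88, 0.88 and 0.86, given as a description because the libraries fall into 4 groups. Within the 6 LNCaP libraries r was 0.38, 0.91 and 0.35, and within the 6 22Rv1 libraries it was 0.94, 0.90 and 0.95. The log2 differences after SEL120-34A for RPL23A, RPL30 and RPL36AL were 0.76, 0.46 and 0.88 in 22Rv1 and 0.06, 0.11 and 0.10 in LNCaP. The genes were picked for following CCNH over these same libraries, so these values describe the choice and carry no test.

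**Figure D4:**
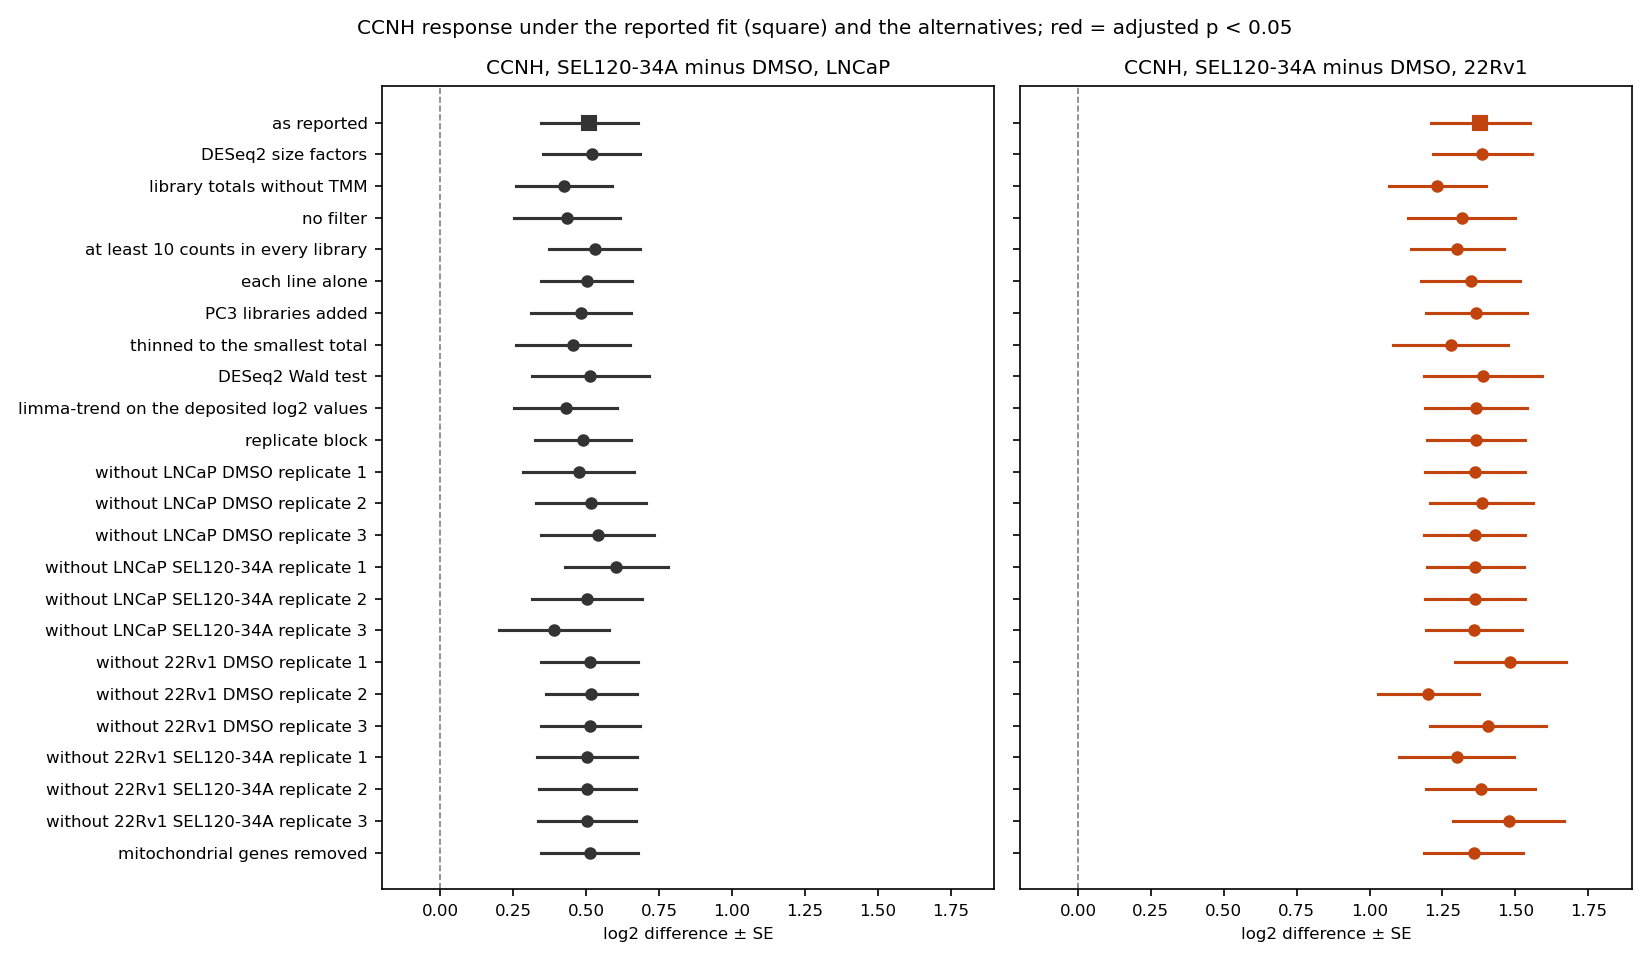
Log2 difference ± SE (horizontal axes) of CCNH for SEL120-34A against DMSO in LNCaP and 22Rv1 under the reported fit (square) and 23 alternatives (circles), in red where the adjusted p is under 0.05. All 22Rv1 values, between 1.20 and 1.48, are red, and no LNCaP value, between 0.39 and 0.60, is.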

How the data were processed

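Messenger RNA was measured in 14 BRB-seq libraries. Per the labels and methods, the authors aligned and counted reads with STARsolo on GRCh38.p13 and GENCODE 43 and deposited raw counts for 62703 genes. UMI collapse and strand setting are not given in the sources used here. The authors also deposited log2 CPM values for 9638 genes, which the counts gave back to within 5e-14 and which served 1 alternative. Groups and replicate numbers came from the labels.

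The 12 LNCaP and 22Rv1 libraries were fitted together in edgeR 4.0.16 (R 4.3.3, TMM, low-count filter, 7086 genes, quasi-likelihood F-test, 8 residual degrees of freedom). P-values were adjusted by the Benjamini-Hochberg method across the 7086 genes, and 0.05 was the threshold. All 10 members were named. From the lists, up to 12 genes past the threshold in either line were to be named, and for CCNH the 3 genes most like it. Members and lists were chosen with earlier results of these data known. Levels are mean ± SD of CPM. For edgeR fits the SE is the absolute log2 difference divided by the square root of F. Intervals were built from that SE. Such SEs and intervals are unreliable where the difference is small. For the DNA repair gene NBN, the difference between lines of 0.006 had an SE of 0.889. The NBN responses in LNCaP and 22Rv1 had SEs of 0.418 and 0.324. PC3 ratios carry a prior count of 2.

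Alternatives were other normalizations and filters, each line alone, PC3 added, thinning to 246063 counts, DESeq2 1.42.0, limma-trend (limma 3.58.1), a replicate block and each library left out. Removing mitochondrial genes, and a block over both lines for the untreated comparison, were added after seeing the data. Libraries of a group differed beyond counting error (chi-square per degree of freedom 1.54 to 1.89), so none was treated as a duplicate. Of the gene identifiers of the members, 8 had the same version in GENCODE 44.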

Additional observations from a re-analysis of the deposited data

How the results depend on the processing

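The CCNH rise in 22Rv1 passed under all 23 alternatives and the CCNH value in LNCaP under none. Of 495 alternative values for 24 member differences, 6 lost and 2 gained a call, and 6 short of the threshold moved by more than 1 SE. In 22Rv1 and for the difference between lines, DESeq2's Wald test gave an adjusted p for CCNH alone. The other members' values there were counted as not called, though no call could be made. Among values short of the threshold 22 changed sign, and 0 called values did. The count of members called for the difference between lines was 1 (CCNH) instead of 0 with the replicate block and without treated LNCaP replicate 3. Between untreated lines it was 4 with no filter and with PC3 added, where CCNT2 was also called (adjusted p = 0.0217 and 0.0275), 2 on library totals, and 1 instead of 3 with at least 10 counts in every library and after thinning, where 1 member was tested, and with limma-trend, where 10 were tested and CDK13 (-1.34, adjusted p = 0.0752) and HEXIM1 (0.91, adjusted p = 0.140) missed the threshold, for a cause that was not tested. On library totals without TMM the median of all genes moved to -0.24 between untreated lines and -0.14 in 22Rv1, and the untreated CCNH difference was 0.27 (adjusted p = 0.179).

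Leaving out each library in turn gave 0 to 1 called members for the difference between lines and 2 to 3 between untreated lines, 1 each time in 22Rv1 and 0 each time in LNCaP.

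Same-numbered libraries had correlated deviations of -0.000913 to 0.326 in LNCaP and -0.0436 to 0.0893 in 22Rv1. Differently numbered ones ran from -0.336 to 0.123 in LNCaP and from -0.146 to 0.127 in 22Rv1. The LNCaP pairs of replicates 1 (0.245) and 3 (0.326) exceeded every differently numbered LNCaP pair, and that of replicates 2 did not. These values do not settle whether LNCaP libraries were paired. The reported fit did not pair libraries. With the replicate block the CCNH difference between lines was -0.88 (adjusted p = 0.0394), and the block changed no other call of a member. Over the alternatives the number of all genes called was 41 to 275 in LNCaP (196 as reported), 158 to 479 in 22Rv1 (404), 5 to 77 for the difference (52) and 1503 to 4361 between untreated lines (3473). Libraries of 246063 to 909176 counts left 4 of the 10 members untested.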
